A study of Sus scrofa with 6 samples.

Results

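Matrix metalloproteinases (MMP), ADAM and ADAMTS proteases, ADAMTS-like proteins (ADAMTSL) and tissue inhibitors of metalloproteinases (TIMP) were followed in porcine granulosa cells of antral follicles that were healthy (HA) or atretic (AA). Members were all rows of the deposited gene table named MMP, TIMP, ADAM, ADAMTS or ADAMTSL with a number, which gave 57 of 19442 genes. They comprised 18 MMP, 3 TIMP, 16 ADAM, 17 ADAMTS and 3 ADAMTSL genes under 56 symbols, because ADAMTS1 had 2 rows. All circRNAs whose host gene carried such a name were added, 15 of 9362 circRNAs.

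The 3 HA and 3 AA libraries of total RNA depleted of rRNA each came from granulosa cells of a pool of 10 follicles. Follicles were dissected from ovaries of nulliparous gilts in the follicular phase and sorted by appearance under a stereomicroscope. The paper checked the classes by histology, cleaved caspase 3 staining and hormones of the follicular fluid. It reported that nearly all isolated cells stained for the FSH receptor. HA follicles had a vascularized wall and clear fluid, whereas AA follicles were opaque, lacked clear vascularization and were at advanced atresia. In both groups the scraped mural cells were mixed with the cells of the follicular fluid, so that AA pools included granulosa cells that had come loose. Because the RNA came from bulk pools, fewer cells of a type and less RNA per cell cannot be told apart. The animals were slaughtered in 3 batches and the labels give the 3 pools of a group different dates, so p-values measure the spread between these pools.

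Matrix metalloproteinases are zinc enzymes that cut collagens and other matrix proteins. Most are secreted as inactive precursors, the membrane-type members sit on the cell surface, and TIMPs block their active site. ADAM proteases are membrane proteins of which some release growth factors, cytokine receptors and adhesion proteins from the cell surface, while others lack the catalytic zinc site and act in adhesion. ADAMTS proteases are secreted and cut proteoglycans, procollagens and other matrix proteins. In the ovary these enzymes are known for the remodelling of the follicle wall and basal lamina during growth, ovulation and atresia.

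The 6 libraries held an estimated 10240696 to 15462496 fragments assigned to genes, worked out from scaled values. Gene levels are given as FPKM, the fragments of a gene scaled by the authors to transcript length and to the mapped fragments of the library. A total of 11001 genes reached 1 FPKM in 3 or more libraries and were compared by limma on log2(FPKM + 1). Differences are AA minus HA on that scale, which understates the change of low genes. As a check of the labels, CYP19A1, the aromatase of estradiol synthesis, was at 128 to 307 FPKM in AA and 744 to 1052 FPKM in HA. FSHR, the FSH receptor that marks granulosa cells, was present in all libraries, at 88.3 to 92.0 FPKM in AA and 28.4 to 51.0 FPKM in HA. CYP17A1, the androgen-producing enzyme of theca cells, reached at most 1.38 FPKM.

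Of the 57 genes, 26 passed the filter and 31 did not, 11 of which were listed at 0 in all libraries. None of the 26 passed an adjusted p of 0.05 in limma, and neither did any of the 11001 genes (0%). The lowest adjusted p among the members was 0.0871, for ADAM12. At an unadjusted p of at most 0.05, 6 members were higher in AA (23.1%) against 9.48% of all genes tested, and 4 were lower (15.4%) against 6.14% of all genes. The higher ones were ADAM12, MMP2, MMP14, ADAMTS7, TIMP1 and ADAM28, and the lower ones ADAMTS20, ADAM23, TIMP4 and TIMP3. All 3 AA libraries lay above all 3 HA libraries for 9 members (34.6%, against 11.9% of all genes tested), and below them for 6 members (23.1%, against 9.1%). ADAM19, one of the 9, passed the filter only through its AA libraries, so its place above HA followed from the filter. The median difference of the 26 members was 0.31, beside 0.01 over all genes tested.

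**Figure D1:**
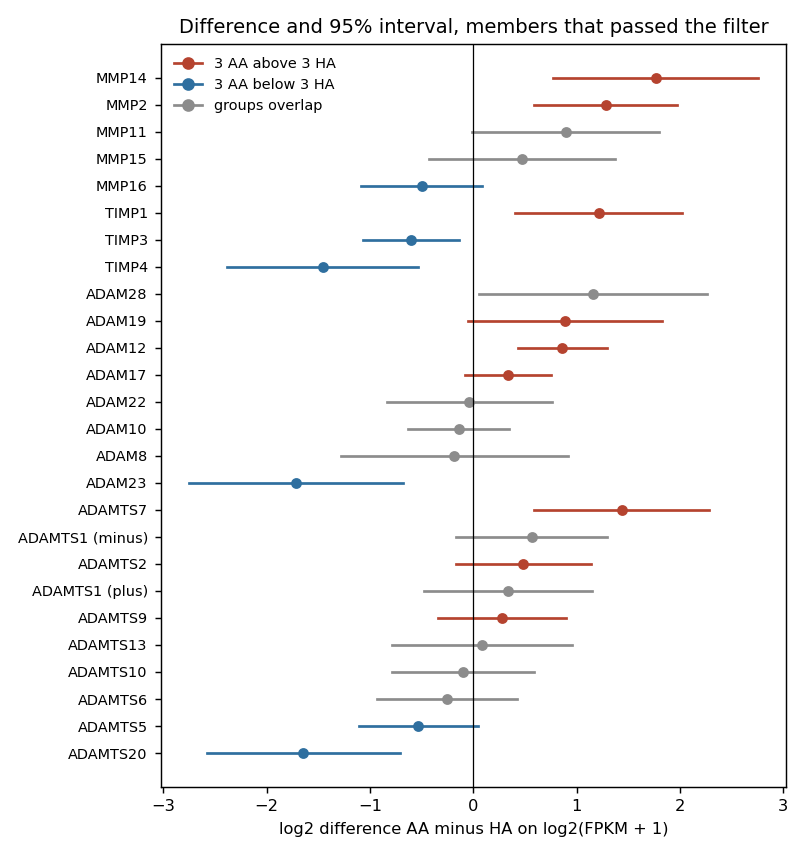
Difference between AA and HA on log2(FPKM + 1), with its 95% interval from limma, for the 26 rows that passed the filter, by family. Red marks 9 rows with all 3 AA libraries above all 3 HA libraries, blue 6 rows with the reverse, grey 11 rows whose groups overlap, and (minus) and (plus) give the strand of the ADAMTS1 rows.

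Members whose groups did not overlap were found in all 4 families with genes past the filter, on both sides in each. Genes with higher values in AA included a gelatinase, a membrane-type MMP, TIMP1 and ADAM12, and those with lower values included MMP16, TIMP3, TIMP4, ADAM23 and ADAMTS20. AA library 2 was the AA library farthest from HA for 7 of the 9 members above HA, and AA library 3 was the nearest for all 9. Among all genes tested whose AA libraries lay above HA, AA library 2 was the farthest for 928 and AA library 3 the nearest for 704 of 1311. The count of members at an unadjusted p of at most 0.05 without AA library 2 was 5 higher and 4 lower of 25, against 5.81% and 3.28% of all genes tested without it.

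MMP2, the gelatinase that cuts denatured collagen and basal lamina collagen, was the MMP with the highest mean level over all 6 libraries and in AA, whereas MMP16 was higher in HA. It was at 68.8, 137 and 67.2 FPKM in AA libraries 1 to 3 and at 34.1, 44.1 and 27.9 FPKM in HA libraries 1 to 3. Every AA library was above every HA library, and the ratio of means was 2.57. The difference was 1.28 ± 0.30 (SE) on the log2 scale with an adjusted p of 0.106 in limma. Without AA library 2 it was 0.95. The MMP2 gene lies on chromosome 6 at 27526397 to 27553927 of Sscrofa10.2, the build of all coordinates given here, by the locus in the gene table.

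MMP14, the membrane-type MMP that activates the precursor of MMP2, showed the largest difference of the MMP genes that passed the filter. Its level was 18.3, 46.9 and 12.1 FPKM in AA and 5.41, 5.72 and 6.14 FPKM in HA. The 3 HA libraries lay close together and all AA libraries were above them, but the AA libraries also differed widely among themselves. The difference was 1.77 ± 0.43 (SE; adjusted p = 0.116, limma), and 1.23 without AA library 2. The gene lies on chromosome 7 at 81413667 to 81425248.

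MMP16, another membrane-type MMP that can activate MMP2, stood on the other side. It was at 44.1, 23.0 and 41.9 FPKM in AA and at 50.8, 45.7 and 53.3 FPKM in HA. All AA libraries were below all HA libraries, although AA library 1 missed HA library 2 by less than 2 FPKM. The difference was −0.50 ± 0.25 (SE; adjusted p = 0.392, limma), and only −0.21 without AA library 2. In HA, MMP16 was the leading MMP, with 38.1% to 47.3% of the summed FPKM of the 18 MMP genes. In AA it made up 22.6%, 8.35% and 27.8%, and the ratio of MMP2 to MMP16 was 1.56, 5.96 and 1.61 against 0.670, 0.965 and 0.523 in HA. The ratio of MMP14 to MMP16 was 0.414, 2.04 and 0.288 in AA and 0.106 to 0.125 in HA. The sum of the 5 membrane-type genes (MMP14, MMP15, MMP16, MMP17 and MMP25) overlapped between groups, at 55.7 to 73.3 FPKM in AA and 52.6 to 61.2 FPKM in HA, while the makeup of that sum differed as these ratios show.

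MMP11, a stromelysin that is activated inside the cell by furin, was the remaining MMP above 10 FPKM. Its values were 57.9, 54.5 and 25.2 FPKM in AA and 14.7, 21.8 and 36.4 FPKM in HA. AA library 3 lay below HA library 3, so the groups overlapped (0.89 ± 0.39 SE, adjusted p = 0.323, limma). MMP15, a membrane-type MMP, ranged from 1.11 to 3.42 FPKM in AA and 0.556 to 1.77 FPKM in HA. The sum over the 18 MMP genes was 195, 275 and 151 FPKM in AA and 107, 120.1 and 127 FPKM in HA, with no overlap and a ratio of means of 1.75.

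**Figure D2:**
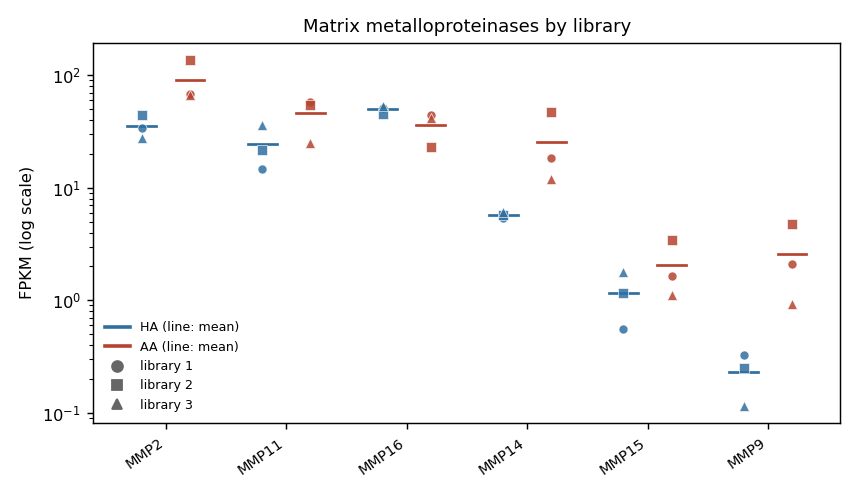
FPKM (log axis) of 6 MMP genes in the 3 HA (blue) and 3 AA (red) libraries, with symbols for the library number and lines for group means. MMP2, MMP14 and MMP9 are higher in every AA library, MMP16 is lower in every AA library, and MMP11 and MMP15 overlap.

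The other 13 MMP genes did not pass the filter. The collagenase MMP8, the stromelysin MMP3, the matrilysin MMP7 and MMP27 were listed at 0 in all libraries. MMP12, MMP13, MMP17, MMP19, MMP20, MMP23B and MMP25 were detected at up to 1.65 FPKM, the highest being MMP19 in AA library 2. MMP9, the other gelatinase, and MMP1, the interstitial collagenase, are given by library because of their values, a choice made after these were seen. MMP9 was at 2.08, 4.81 and 0.919 FPKM in AA, from about 82, 151 and 38 fragments, and at 0.323, 0.250 and 0.115 FPKM in HA, from about 12, 11 and 5 fragments. All AA libraries were above all HA libraries, and in limma without the filter the difference was 1.41 with an adjusted p of 0.232. MMP1 was at 0.405, 2.72 and 0.660 FPKM in AA, from about 14, 75 and 24 fragments, and at 0, 0.155 and 0.0262 FPKM in HA, from about 0, 6 and 1 fragments. MMP12, the macrophage elastase, was seen in AA library 2 alone, at 0.775 FPKM.

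TIMP3, the inhibitor that binds to the matrix and also blocks ADAM17 and aggrecanases, had the highest mean FPKM of all members. That rank depends on the annotated transcript lengths. TIMP3 had about 461 to 1520 fragments per library, fewer than ADAM10 with about 3870 to 6898. TIMP3 was at 133, 95.1 and 143 FPKM in AA and at 179, 216 and 167 FPKM in HA. All AA libraries were lower, with a ratio of means, HA over AA, of 1.51 and a difference of −0.60 ± 0.20 (SE; adjusted p = 0.213, limma). Without AA library 2 the difference was −0.42. TIMP3 lies on chromosome 5 at 11965790 to 11975326.

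TIMP1, a secreted inhibitor, was at 92.1, 153 and 65.4 FPKM in AA and at 28.5, 41.3 and 59.9 FPKM in HA. TIMP1 was higher in every AA library, but AA library 3 exceeded HA library 3 only slightly. The difference was 1.21 ± 0.35 (SE; adjusted p = 0.155, limma), and 0.89 without AA library 2. The locus of the TIMP1 row was shared with other rows, so its level and every share or ratio with it are uncertain to that extent. TIMP4, of low level, was at 0.420, 1.01 and 1.14 FPKM in AA, from about 3, 6 and 9 fragments. In HA it was at 3.78, 7.24 and 2.22 FPKM, from about 27, 62 and 18 fragments. The AA libraries were lower without overlap, by 1.46 ± 0.40 (SE; adjusted p = 0.144, limma).

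The sum of the 3 TIMP genes overlapped between groups, at 226, 249 and 210 FPKM in AA and 211, 264 and 229 FPKM in HA. Their makeup did not overlap, since TIMP1 was 40.8%, 61.3% and 31.2% of the sum in AA and 13.5%, 15.6% and 26.2% in HA. TIMP3 was 38.3% to 68.3% of the sum in AA and 72.8% to 84.7% in HA. The ratio of the MMP sum to the TIMP sum was 0.865, 1.11 and 0.718 in AA and 0.509, 0.454 and 0.554 in HA. For the pair of MMP2 and TIMP1 alone the ratio overlapped, at 0.747 to 1.03 in AA and 0.465 to 1.20 in HA. The TIMP2 gene had no row of that name and is not in these sums. Sums, shares and ratios over different genes also depend on the annotated transcript lengths.

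**Figure D3:**
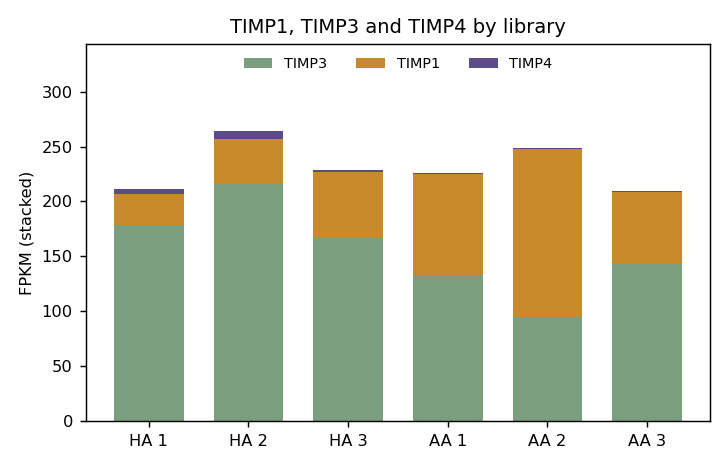
Stacked FPKM of TIMP3 (green), TIMP1 (ochre) and TIMP4 (violet) in each of the 3 HA and 3 AA libraries. The bars have similar heights, 211 to 264 FPKM in HA and 210 to 249 FPKM in AA, while TIMP1 takes 31.2% to 61.3% of them in AA and 13.5% to 26.2% in HA.

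ADAM10 and ADAM17 are the main sheddases, which release Notch receptors, EGF receptor ligands and cytokine receptors from the cell surface. ADAM10 had the highest level of the ADAM genes and overlapped between groups, at 71.7, 85.1 and 105 FPKM in AA and 107, 108 and 74.7 FPKM in HA. Its difference was −0.14 with a 95% interval of −0.63 to 0.35. ADAM17, the enzyme that releases TNF and amphiregulin, was at 38.3, 47.2 and 33.5 FPKM in AA and 32.2, 32.4 and 28.3 FPKM in HA. Its AA libraries were all above the HA libraries, by a margin of about 1 FPKM at the closest, and the difference was 0.34 ± 0.18 (SE; adjusted p = 0.423, limma), and 0.21 without AA library 2. A second row that only a reference list of pig genes names ADAM17 lay on the opposite strand of a nearby locus, with 27.2 to 35.3 FPKM in AA and 19.8 to 26.7 FPKM in HA. Both rows are uncertain, since each shared its locus with other rows.

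ADAM12, an active protease that cuts IGF-binding proteins, had the lowest p of all members. It was at 29.6, 27.9 and 24.3 FPKM in AA and 14.6, 12.7 and 16.5 FPKM in HA. The libraries within each group lay close together and the groups were clearly apart, with a ratio of means of 1.87. The difference was 0.86 ± 0.19 (SE; adjusted p = 0.0871, limma), and 0.84 without AA library 2. ADAM12 lies on chromosome 14 at 146937522 to 147045431.

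ADAM23, an ADAM without the catalytic zinc site that binds integrins, showed the reverse. It was at 9.45, 4.37 and 17.3 FPKM in AA and at 23.8, 49.6 and 28.3 FPKM in HA. No AA library reached the HA range, and the ratio of means, HA over AA, was 3.26. The difference was −1.72 ± 0.45 (SE; adjusted p = 0.129, limma), and −1.26 without AA library 2. The ratio of ADAM12 to ADAM23 was 3.14, 6.37 and 1.40 in AA and 0.613, 0.256 and 0.583 in HA. ADAM22, the other measured ADAM without the zinc site, overlapped, at 1.64 to 4.72 FPKM in AA and 2.66 to 2.78 FPKM in HA.

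Among the remaining ADAM genes, ADAM28, known from lymphocytes, ranged from 2.84 to 11.9 FPKM in AA and 1.07 to 3.20 FPKM in HA. Its groups overlapped, and its difference of 1.16 had an adjusted p of 0.301 in limma and was 0.74 without AA library 2. ADAM19, a protease that cuts neuregulin, was at 1.02 to 3.90 FPKM in AA and 0.349 to 0.606 FPKM in HA, without overlap (adjusted p = 0.346, limma). It passed the filter of 1 FPKM only through its AA libraries, so the lack of overlap followed from the filter. ADAM8 overlapped, at 1.70 to 5.48 FPKM in AA and 1.37 to 5.28 FPKM in HA. Of the 8 ADAM genes below the filter, ADAM7, ADAM18, ADAM21, ADAM29 and ADAM30 were listed at 0 in all libraries, and ADAM32, ADAM33 and ADAM3A were at up to 0.245 FPKM. ADAM9 and ADAM15, which the reference list alone gave under these symbols, overlapped at 28.4 to 42.6 and 4.98 to 10.6 FPKM over the 6 libraries.

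**Figure D4:**
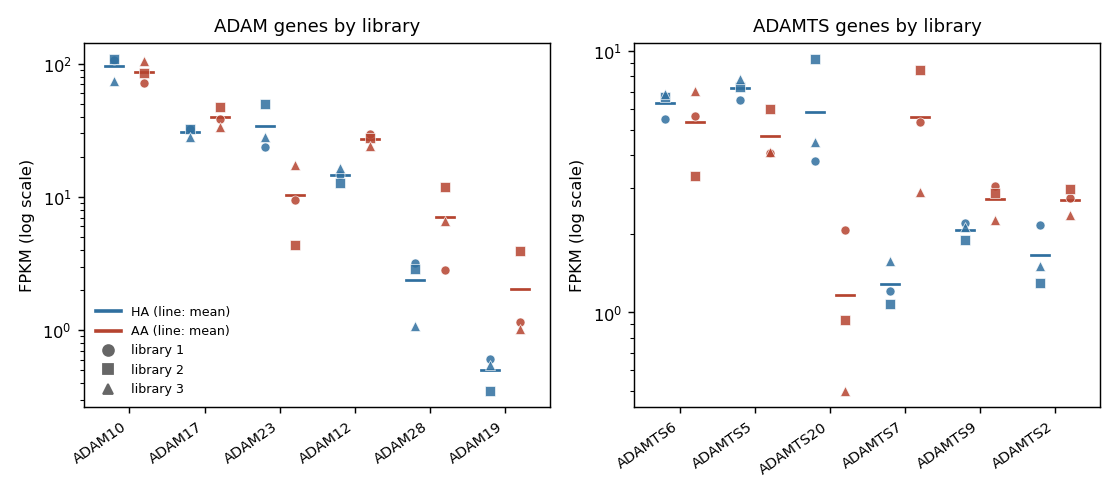
FPKM (log axes) of 6 ADAM genes (left) and 6 ADAMTS genes (right) in the 3 HA (blue) and 3 AA (red) libraries, with symbols for the library number and lines for group means. ADAM12, ADAM17, ADAM19, ADAMTS7, ADAMTS9 and ADAMTS2 are higher and ADAM23, ADAMTS5 and ADAMTS20 lower in every AA library.

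The ADAMTS genes were expressed at lower levels than the leading MMP and ADAM genes, up to 9.95 FPKM. ADAMTS5 and ADAMTS6 had the highest means over all 6 libraries, whereas the minus-strand row of ADAMTS1 had the highest mean in AA (6.65 FPKM). ADAMTS5, an aggrecanase that also cuts versican, was at 4.06, 5.98 and 4.13 FPKM in AA and 6.48, 7.26 and 7.84 FPKM in HA. The AA libraries lay below the HA libraries, by 0.53 ± 0.25 (SE; adjusted p = 0.354, limma). ADAMTS6 overlapped, at 5.62, 3.32 and 7.05 FPKM in AA and 5.51, 6.65 and 6.85 FPKM in HA.

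ADAMTS20 and ADAMTS7 had the largest differences of the family, and their values by library are given for that reason, a choice made after they were seen. ADAMTS20, a versican-cutting protease known from pigment cell development in mice, was at 2.06, 0.933 and 0.501 FPKM in AA and 3.81, 9.30 and 4.49 FPKM in HA. All AA libraries were lower, with a ratio of means, HA over AA, of 5.03 and a difference of −1.65 ± 0.41 (SE; adjusted p = 0.117, limma). Its share of the summed ADAMTS FPKM was 1.62% to 5.71% in AA and 12.5% to 24.6% in HA. ADAMTS7, which cuts cartilage oligomeric matrix protein, was at 5.37, 8.45 and 2.89 FPKM in AA and 1.21, 1.08 and 1.58 FPKM in HA. It was higher in each AA library, by 1.44 ± 0.37 (SE; adjusted p = 0.124, limma), and by 1.13 without AA library 2. Reads of ADAMTS7 are uncertain to the extent that its locus was shared with other rows.

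ADAMTS1, the protease known for versican cleavage at ovulation, had a row on each strand of chromosome 13. The minus-strand row was at 4.76 to 9.95 FPKM in AA and 3.44 to 4.90 FPKM in HA, and the plus-strand row at 2.46 to 4.24 and 1.51 to 3.91 FPKM. Both overlapped between groups. ADAMTS2, a procollagen N-proteinase, and ADAMTS9, a versican-cutting protease, were higher in all AA libraries, at 2.37 to 2.96 against 1.29 to 2.16 FPKM and at 2.26 to 3.06 against 1.89 to 2.19 FPKM. Their adjusted p-values in limma were 0.463 and 0.661. ADAMTS10, which acts on fibrillin fibres, and ADAMTS13, the protease of von Willebrand factor, overlapped, at 0.862 to 1.42 and 0.775 to 2.54 FPKM over the 6 libraries.

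Below the filter were ADAMTS3, ADAMTS4, ADAMTS8, ADAMTS12, ADAMTS14 and ADAMTS15, at up to 0.930 FPKM, and ADAMTS16, listed at 0 in all libraries. ADAMTSL2 and ADAMTSL4, relatives without a protease domain, reached 1.02 and 1.43 FPKM in an AA library each, and ADAMTSL1 was listed at 0. The sum over the 17 ADAMTS rows overlapped between groups, at 30.9 to 42.1 FPKM in AA and 30.6 to 37.8 FPKM in HA. The sum over the 16 ADAM genes overlapped too, at 160.2 to 195 FPKM in AA and 157 to 214 FPKM in HA.

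Markers of other cell types were followed too, and their sums did not all differ in the same direction. Differences were positive for 8 of 8 leukocyte, 2 of 2 endothelial and 8 of 10 theca and stroma rows past the filter. The 1 oocyte row and 1 red cell row past it were negative. Over all genes tested, 5673 of 11001 differences were positive. Of 14 leukocyte marker rows, 8 passed the filter and 6 of these (75.0%, against 11.9% of all genes tested) were higher in all AA libraries than in all HA libraries. ITGB2, one of the 6, passed the filter only through its AA libraries. The summed level of the 14 rows was 51.0, 142 and 37.7 FPKM in AA and 17.0, 8.73 and 7.10 FPKM in HA, and CD163 and S100A9 were at 0 in all libraries. CD68, a lysosomal protein of macrophages, was at 5.96 to 32.7 FPKM in AA and 0.640 to 1.03 FPKM in HA. The sum of 6 endothelial markers was 8.57, 29.7 and 15.1 FPKM in AA and 4.88, 6.15 and 3.71 FPKM in HA. Only 2 of these rows passed the filter, PECAM1, which was higher in all AA libraries, and KDR, which overlapped. CLDN5, below the filter, gave 13.1 FPKM of the sum in AA library 2.

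The 12 rows of theca and stroma markers gave 138 to 208 FPKM in AA and 244 to 337 FPKM in HA. LHCGR, which mural granulosa cells can also express, made up the larger part in HA, at 172, 286 and 250 FPKM. In AA it was at 65.3, 21.2 and 58.9 FPKM. Only LHCGR and INSL3 had a negative difference among the 10 rows that passed the filter. INSL3, made by theca cells, was at 11.3 to 23.6 FPKM in AA and 23.4 to 46.7 FPKM in HA, and CYP17A1 was lower in all AA libraries. DCN, LUM, COL1A1, COL1A2 and COL3A1 overlapped. PDGFRB, ACTA2 and TAGLN, markers of pericytes and smooth muscle, were higher in all AA libraries, ACTA2 at 24.4 to 42.5 against 7.03 to 16.6 FPKM. Both PDGFRB rows passed the filter only through their AA libraries. The 8 granulosa markers overlapped in their sum, at 2706 to 6235 FPKM in AA and 5691 to 11216 FPKM in HA. Of these markers 7 had a negative difference, beside 5328 of the 11001 genes tested, and 1, FSHR, a positive one. CYP19A1 and NR5A2 were lower in all AA libraries, NR5A2 at 213, 130 and 337 against 457, 494 and 470 FPKM, FSHR was higher, and 5 overlapped. The sums of oocyte markers and of red cell markers overlapped too. ADAM12 was highest in AA library 1. AA library 2 was the farthest from HA for 928 of the 1311 tested genes whose AA libraries lay above HA. It also had the highest leukocyte and endothelial sums and the highest level of MMP2, MMP14, MMP9, TIMP1, ADAM28 and ADAMTS7. The part of these cell types in the differences of MMP2, MMP14, MMP9, TIMP1, ADAM12, ADAM28 and ADAMTS7 was not tested.

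**Figure D5:**
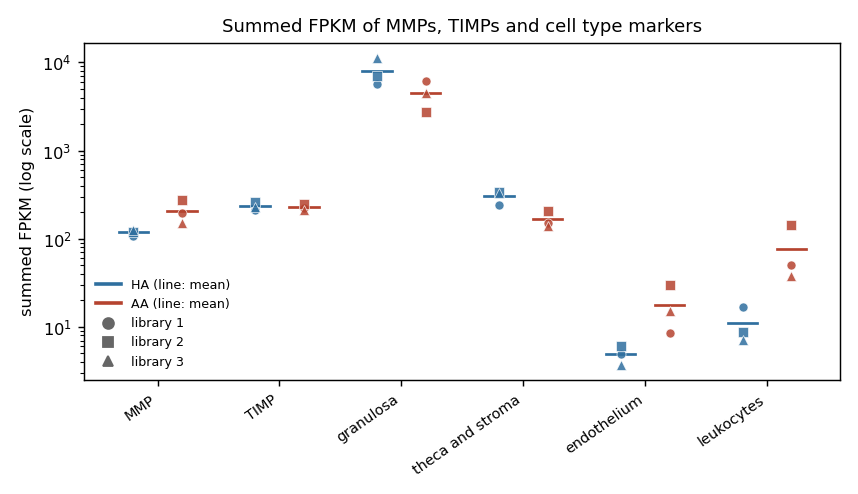
Summed FPKM (log axis) of the MMP genes, the TIMP genes and 4 lists of cell type markers in the 3 HA (blue) and 3 AA (red) libraries, with symbols for the library number and lines for group means. MMP, endothelial and leukocyte sums are higher in every AA library, and the TIMP and granulosa sums overlap. The theca and stroma sum, of which LHCGR is the larger part in HA, is lower in every AA library. Of its 10 rows past the filter, 8 have a positive difference and 2 a negative one.

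Activators, inhibitors and partners outside the families were followed with a list of 28 genes, of which 22 rows were in the table and 18 passed the filter. Of these, 5 were higher (27.8%, against 9.48% of all genes tested) and 2 lower (11.1%, against 6.14%) in AA at an unadjusted p of at most 0.05. PLAT, the tissue plasminogen activator, was at 46.8, 91.1 and 46.0 FPKM in AA and 10.9, 18.0 and 11.7 FPKM in HA (adjusted p = 0.0568, limma). THBS1, the matrix protein thrombospondin 1, was at 172, 609 and 273 FPKM in AA and 31.3, 34.4 and 30.0 FPKM in HA (adjusted p = 0.0568, limma). With the day of the label dates as a block their adjusted p-values were 0.0398 and 0.0364, so that the call of both depended on the block. FURIN, the convertase that activates membrane-type MMP, ADAM and ADAMTS precursors, was at 25.7 to 28.9 FPKM in AA and 13.6 to 18.3 FPKM in HA (adjusted p = 0.116, limma). The other convertases of the list, PCSK5, PCSK7 and 2 rows of PCSK6, overlapped between groups, as did PLAU and A2M. In all, 11 of the 18 rows overlapped.

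TSPAN5 and TSPAN33, tetraspanins that escort ADAM10 to the cell surface, were higher in all AA libraries, at 5.05 to 7.53 against 2.46 to 2.82 FPKM and at 4.70 to 6.82 against 1.99 to 2.98 FPKM. TSPAN14 and TSPAN17, of the same group and more abundant, overlapped, with differences of −0.03 and −0.04. RECK, a membrane-anchored inhibitor of MMP, was lower in all AA libraries, at 11.1, 5.46 and 17.9 FPKM against 25.1, 24.4 and 19.6 FPKM (adjusted p = 0.217, limma). TFPI2, a serine protease inhibitor of the matrix, was at 31.0 to 123 FPKM in AA and 119 to 271 FPKM in HA, with overlap. PLG, which encodes plasminogen, was listed at 0 in all libraries.

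Matrix substrates comprised 30 listed genes with 27 rows, of which 18 passed the filter. Unadjusted p-values of at most 0.05 were found for 3 of them higher (16.7%, against 9.48% of all genes tested) and 1 lower in AA (5.56%, against 6.14%). LAMB1, a laminin chain, was at 3.26 to 9.04 FPKM in AA and 1.18 to 1.67 FPKM in HA (adjusted p = 0.120, limma). LTBP1, which anchors latent TGF-beta, was at 45.9 to 65.7 FPKM in AA and 18.6 to 42.0 FPKM in HA (adjusted p = 0.167, limma), and COL4A4, a basal lamina collagen chain, was the third. FBN2, a fibrillin, was lower, at 2.89 to 6.90 FPKM in AA and 10.7 to 15.9 FPKM in HA (adjusted p = 0.0851, limma). Of the 18 rows, 12 overlapped between groups, among them the most abundant ones. VCAN, the gene of versican, was at 494 to 1025 FPKM in AA and 600 to 962 FPKM in HA. COL4A1, COL4A2, HSPG2, LAMB2 and LAMC1 overlapped as well. The sum of the 27 rows overlapped, at 1431 to 1677 FPKM in AA and 1214 to 1570 FPKM in HA.

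Proteins shed from the cell surface comprised 29 listed genes with 25 rows, of which 18 passed. Of these rows, 7 were higher (38.9%, against 9.48% of all genes tested) and 1 lower (5.56%, against 6.14%) in AA at an unadjusted p of at most 0.05. CD44, the hyaluronan receptor, was at 11.5, 56.5 and 17.4 FPKM in AA and 6.002, 9.37 and 3.76 FPKM in HA (adjusted p = 0.178, limma). SDC1, TNFRSF1A, APP, NOTCH2 and 2 rows of IL6R were also higher in all AA libraries, although 1 of the IL6R rows passed the filter only through these. JAG1, a Notch ligand, was lower, at 9.79 to 16.5 FPKM in AA and 17.2 to 35.1 FPKM in HA (adjusted p = 0.157, limma). Of the 18 rows, 9 overlapped, among them CDH2, the most abundant, at 479 to 1202 FPKM in AA and 641 to 1198 FPKM in HA. These 3 lists had median differences of 0.28, 0.35 and 0.46, beside 0.01 over all genes tested.

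CircRNAs were counted by the reads over their back-splice junction, and a value in the table was 0 or at least 2 reads. The 15 circRNAs were assigned to 8 host genes, of which TIMP2 had no gene row by name and ADAM9 only one named by the reference list, and held 187 of the 183089 junction reads. They were few per library, 3, 1 and 3 in AA and 2, 6 and 5 in HA. CircRNAs of any gene detected per library were 3036, 1270 and 1620 in AA and 1416, 2804 and 3465 in HA. Of the 15, 12 (80.0%) were found in a single library, beside 77.2% of all circRNAs. Exons were the source of 13 of the 15. With edgeR, a call required an adjusted p no higher than 0.05 together with a difference of 2-fold or more. Only 1 of the 1014 circRNAs tested met this (0.0986%), and it was not of these genes.

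The circRNA of ADAM17 was the only one of the 15 that could be tested. It came from exonic sequence on the plus strand of chromosome 3 at 135116468 to 135117428, in the locus of the row that only the reference list names ADAM17, and its predicted length was 210 nt. Its junction had 19, 0 and 34 reads in AA and 0, 8 and 7 reads in HA. Both groups contained a library without it, and the difference of 1.95 on the log2 scale had an adjusted p of 0.998 in edgeR.

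ADAMTS6 gave 3 circRNAs, on the minus strand of chromosome 16. An exonic one at 47267573 to 47269022, of 442 nt, had 32 reads in AA library 3 and 3 in HA library 3. Another with the same start ended at 47323717, beyond the locus of the gene row, and had 20 reads in AA library 2 and 7 in HA library 1. The third, at 47115739 to 47124469, had 7 reads in AA library 1. No library held 2 of the 3.

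TIMP2, absent from the gene rows by name, was the host of an intronic circRNA of 86 nt on chromosome 12 at 3297160 to 3297245, with 11 reads in AA library 3 alone. The remaining 10 circRNAs had at most 7 reads. MMP16 had 3, all in HA library 2, and ADAM10 had 3, of which 2 were in HA library 3. The third, in HA library 1, carries the name ADAM10 but lies on the plus strand outside the locus of the minus-strand ADAM10 row. ADAM23 had 1 each in HA libraries 2 and 3, ADAM22 had 1 in HA library 2 and ADAM9 had 1 in AA library 1. With such counts an absence from the other libraries cannot be told from a level under the detection minimum of 2 reads.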

How the data were processed

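Gene rows and circRNAs of 6 libraries were used. Members and lists were chosen with earlier results of these data known. CircRNAs were found by the authors with find_circ on Sscrofa10.2, after trimming (cutadapt v1.9.3) and alignment (bowtie2 v2.2.4). The deposited circRNA table holds raw junction read counts and log2 values, which the authors scaled to mapped reads. The deposited gene FPKM came from the authors' TopHat and Cufflinks run, versions not given in the sources used here, and whether it counted by strand is not given either. The deposited columns named count are a signal scaled by 1 factor per library. They served only to give fragments, since at least 99.7% of low values were whole multiples of 1 step (tolerance 0.1).

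FPKM were tested with limma 3.58.1 (trend, pseudocount 1, at least 1 FPKM in at least 3 of 6 libraries) and circRNA counts with edgeR 4.0.16 (quasi-likelihood test, at least 2 reads in at least 3 libraries, library sizes from the mapped-read constants). P-values were adjusted by Benjamini-Hochberg over all features tested. Both fits were tested on simulated data. Genes were named with library values if they were called, were TIMPs or had one of the 12 highest mean FPKM, other members by range. The labels give same-numbered AA and HA libraries 1 date, read as a shared day. Their deviations from the group means correlated at −0.29, 0.00 and −0.40, other pairs at up to 0.40. The study's methods use no block, so it was an alternative. Others were no filter, quantile normalization, pseudocount 0.1, at least 1 FPKM in all libraries, no variance trend, median-ratio scaling, TMM, DESeq2 1.42.0 and leaving out each library. The lncRNA table was not used.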

Additional observations from a re-analysis of the deposited data

How the results depend on the processing

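No member gene was called in any limma fit, and no circRNA of these genes in any edgeR or DESeq2 fit. The lowest adjusted p of a member was 0.0568, for MMP14 without AA library 3. For the 26 rows, 320 of 326 alternative values kept the direction and the side of the threshold. The 6 others, in 3 genes with small differences, changed sign. Leaving out a library moved ADAM8 between −0.6213 and 0.0824, ADAM22 between −0.3702 and 0.187 and ADAMTS13 between −0.059 and 0.2411, with the sign turned for ADAM8 without AA library 2 or HA library 3, for ADAM22 without AA library 1 or AA library 2 and for ADAMTS13 without HA library 2. Quantile normalization gave −0.0325 for ADAMTS13. The cause was not tested.

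Over all genes, the count called in limma was 0 and became 13 with the replicate block, PLAT and THBS1 among them. No other gene named here was called with the block. It was 0 to 97 when a library was left out, namely 2 without AA library 1, 6 without AA library 2 and 97 without AA library 3. Members at an unadjusted p of at most 0.05, a count added after the data were seen, were 6 higher and 4 lower with the block too, where all genes gave 7.04% and 3.90%. Leaving out a library gave 5 to 7 higher and 3 to 5 lower, while the shares of all genes ran from 5.81% (without AA library 2) to 12.004% (without AA library 3) higher and from 3.05% (without HA library 2) to 11.4% (without AA library 3) lower. Without the filter 8 of 46 were higher and 4 lower (all genes 8.48% and 4.82%), without the variance trend 8 and 5 of 26 (9.46% and 5.45%), and requiring 1 FPKM in all 6 libraries left 2 lower, since TIMP4 and ADAMTS20 were then not tested. Of the circRNAs, 1 was called, and 0 with the block, with TMM or without the filter. Leaving out a library gave 0 to 2, with 2 without AA library 3 or HA library 2. The HA values of MMP9 rest on about 5 to 12 fragments and those of MMP1 on about 0 to 6. The AA values of TIMP4 rest on about 3 to 9 fragments. The size of the differences of these genes is therefore imprecise.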
